A study of Mus musculus with 217 samples.

Results

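Gene expression late in the dark phase was compared with gene expression early in the dark phase in the dorsomedial striatum (DMS) of mice. The libraries were chosen by the region and time in their labels. Of 217 libraries in the study, 23 entered the comparison: 12 taken at Zeitgeber time (ZT) 22, which is 22 h after lights on, and 11 taken at ZT14. All 12101 genes of the DMS table were tested.

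The mice were C57BL/6J animals of about 10 weeks, with no transgene or treatment, housed with lights on for 12 h and off for 12 h and with free access to food and water. The ZT22 group held 6 males and 6 females, and the ZT14 group 6 males and 5 females. Bilateral tissue punches of 1 mm were centred on DMS, and total RNA of the whole punch was sequenced, so fewer cells of a type and less RNA per cell cannot be told apart. The study sampled 6 times of day in 3 striatal subregions, and all 70 DMS libraries entered the fits so that technical terms could be estimated from every time.

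Mice are active mainly in the dark, so ZT14 lies early and ZT22 late in their active phase. The circadian clock is a loop in which the activators Arntl, Clock and Npas2 bind E-boxes and raise the Per, Cry and Nr1d genes, whose products then repress the activators or their genes. Output factors such as Dbp pass the time of day on to other genes through D-boxes, and glucocorticoid hormone, which in mice is highest around lights off, sets a further daily signal. DMS receives input from association cortex, is linked to goal-directed action, and consists mostly of medium spiny neurons of the direct and indirect pathways.

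The promoters of 6 genes that were lower at ZT22 are shown because they carry the letters through which the loop is known to act. Each stretch was read from RefSeq (GRCm38.p6) on the strand of the gene, and its position is counted from an annotated start of the gene. Capitals mark the E-box CACGTG, which reads the same on both strands, or the D-box TTATGNAA, searched on both strands. In Ciart (chr3:95882229-95882378, minus strand) 3 E-boxes begin at -116, -58 and -44. In Klf15 (chr6:90462326-90462425, plus strand) they begin at -228 and -172, and a further one at -3 lies outside the stretch shown. In Bhlhe41 (chr6:145865521-145865620, minus strand) the E-box begins at -153, and in Tef (chr15:81802473-81802572, plus strand) at -127. In Per1 (chr11:69098749-69098948, plus strand) an E-box begins at -166 and a D-box at -24. In Per3 (chr4:151044796-151044895, minus strand) D-boxes begin at -205 and -158.
Ciart: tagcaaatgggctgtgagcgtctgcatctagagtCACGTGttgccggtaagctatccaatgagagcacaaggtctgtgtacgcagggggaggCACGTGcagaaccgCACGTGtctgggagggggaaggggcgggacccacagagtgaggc
Klf15: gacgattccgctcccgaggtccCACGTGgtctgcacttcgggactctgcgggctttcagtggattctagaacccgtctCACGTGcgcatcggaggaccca
Bhlhe41: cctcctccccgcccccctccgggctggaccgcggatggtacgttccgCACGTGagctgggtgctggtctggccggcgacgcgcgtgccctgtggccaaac
Tef: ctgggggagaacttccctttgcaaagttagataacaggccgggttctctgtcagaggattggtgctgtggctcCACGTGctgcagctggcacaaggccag
Per1: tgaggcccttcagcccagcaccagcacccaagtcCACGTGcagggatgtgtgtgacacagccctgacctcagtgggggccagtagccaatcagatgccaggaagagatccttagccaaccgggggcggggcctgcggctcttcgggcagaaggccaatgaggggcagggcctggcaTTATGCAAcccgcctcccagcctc
Per3: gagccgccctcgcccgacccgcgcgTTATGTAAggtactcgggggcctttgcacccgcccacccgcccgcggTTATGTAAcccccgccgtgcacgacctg

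Over the windows of 300 bases (250 before to 50 after each start), 7.15% of 32851 promoters held the E-box and 3.38% the D-box. Of the genes tested, 9209 matched a promoter by symbol, and 12.01% of these held an E-box in at least 1 promoter. The E-box was found in 17.6% of the 233 matched genes that were lower at ZT22 and in 10.84% of the 286 that were higher. A match is a description of the letters in this window only. E-boxes were found in 4 of 13 matched core clock genes (Ciart, Cipc, Cry1 and Per1), in 2 of 7 clock output genes (Bhlhe41 and Tef) and in 4 of 17 glucocorticoid targets (Fkbp5, Klf15, Per1 and Sgk1).

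Between 35.71 and 56.1 M reads per library were assigned to the listed genes at ZT22 and between 36.65 and 47.75 M at ZT14. The DMS libraries fall into 2 classes by the share of mitochondrial ribosomal RNA, which the labels do not name: 33 libraries had at least 35.27% and 37 had at most 29.87%. At ZT22 2 of 12 libraries were of the high class (male number 47 and female number 49), against 7 of 11 at ZT14, so class and time are partly entangled. Both are also entangled with the range of animal numbers, split at 31. All 26 DMS libraries numbered 31 or more were of the high class, against 7 of 44 below. Numbers of 31 or more were carried by 2 of 12 libraries at ZT22 and 5 of 11 at ZT14. The share ranged from 19.81 to 44.07% at ZT22 (median 23.77%) and from 24.82 to 52.6% at ZT14 (median 39.8%). Within the low class it was 19.81 to 25.29% at ZT22 (median 23.15%) and 24.82 to 29.87% at ZT14 (median 27.58%). Within the high class the medians were 42.42% and 44.58%. A class term, or a fit of 1 class alone, thus does not balance the share fully between the times. The class was a term in the DMS fits because 9503 genes (78.5%) differed between the classes. All 22 medium spiny neuron markers looked for were measured. Their summed level, not adjusted for class, was 18.64 to 19.03 (log2) at ZT22 and 18.55 to 18.86 at ZT14.

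The first question was how many genes differ between the late and the early dark phase. Of 12101 genes, 409 rose at ZT22 relative to ZT14 (3.38%) and 300 fell (2.48%), or 5.86% in all (limma, Benjamini-Hochberg adjusted p under 0.05). Most differences were small: the median fold was 1.198 among genes that rose and 1.208 among those that fell. A change of over 1.5-fold was reached by 31 that rose and 36 that fell, and a change of over 2-fold by 5 and 6. The median difference over all genes was 0.00 on the log2 scale. When libraries were scaled to an equal sum instead, every difference moved up by a median of 0.06, and 727 genes rose and 102 fell, so the balance of the directions depends on the scaling.

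**Figure D1:**
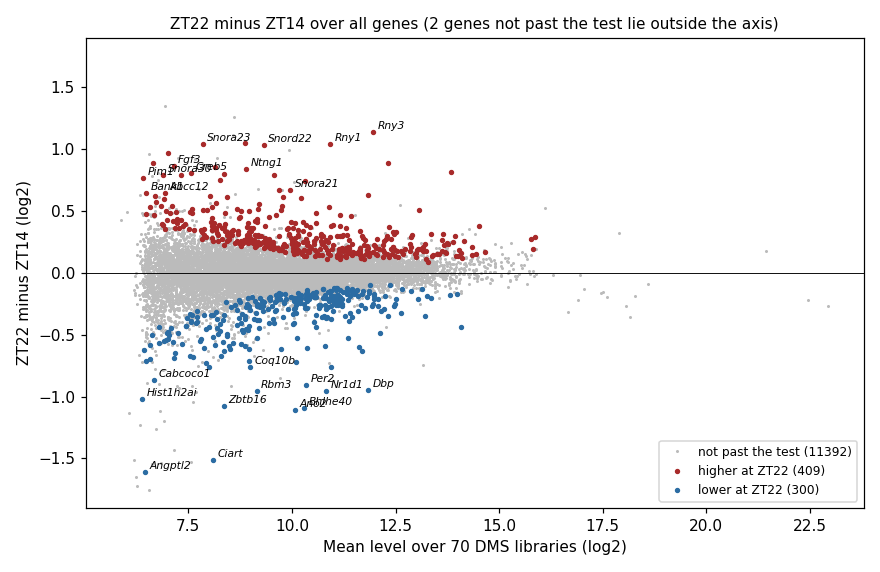
Difference between ZT22 and ZT14 (log2, y axis) against the mean level over 70 DMS libraries (log2, x axis), 1 point per gene, with 409 genes that rose in red, 300 that fell in blue and the genes of largest difference labelled. The 2 genes beyond the axis did not pass the test, and most coloured points lie close to 0.

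In fits of each library class alone 80 genes (0.661%) passed in the high class and 235 (1.94%) in the low class. In the contrasts of each sex, taken from a fit of all DMS libraries, 160 (1.32%) passed in males and 460 (3.8%) in females. The class balance also differed by sex. Of the females 1 of 6 at ZT22 and 4 of 5 at ZT14 were of the high class, and of the males 1 of 6 and 3 of 6. The part of this in the counts by sex, here and in the lists below, was not tested. For 4 genes (0.0331% of those tested) every ZT22 library lay above every ZT14 library, and for 11 genes (0.0909%) every ZT22 library lay below. The 4 were Ntng1, Npas2, Tardbp and Lman2l. The 11 were Ciart, Dbp, Bhlhe40, Rbm3, Tsc22d3, Coq10b, Tef, Cipc, Narf, Dclk1 and Herpud1. With the class effect removed from the levels, 6 genes were separate upwards (0.0496%) and 17 downwards (0.14%).

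Most repressors of the clock loop were lower late in the dark, and 2 of its activators were higher. Of 14 core clock genes 8 fell and 2 rose at ZT22, with a median log2 difference of -0.26 against 0.00 over all genes. Of all genes 2.48% fell and 3.38% rose. Of 9 clock output genes 7 fell and none rose (median -0.35). In the statements that follow, the lowest, median and highest library of each group are levels as log2 of the normalised count plus 1, and a difference is ZT22 minus ZT14 on that scale with its SE, adjusted for sex and class.

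Among the repressors, Ciart (ENSMUSG00000038550, chr3:95878503-95882251, minus strand, GRCm38), which blocks the activators and carries the 3 E-boxes printed above, had levels of 7.11, 7.39 and 7.64 at ZT22 against 8.61, 8.87 and 9.41 at ZT14. The groups did not overlap, and Ciart was 2.86-fold lower at ZT22 (difference -1.51 ± 0.12, adjusted p 3.15e-16). Nr1d1, a nuclear receptor that represses Arntl, had 9.58, 10.13 and 10.61 at ZT22 against 10.46, 11.1 and 11.49 at ZT14, and fell by 0.95 ± 0.09 (4.98e-12). Its ranges overlapped only at their edges. Its paralog Nr1d2 had 10.98, 11.17 and 11.81 at ZT22 against 11.79, 12.12 and 12.33 at ZT14, a difference of -0.63 ± 0.06 (1.15e-13).

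Per2, a period gene that also responds to hormones and activity, had 9.69, 10.29 and 10.59 at ZT22 against 10.28, 10.8 and 11.46 at ZT14 (difference -0.90 ± 0.11, adjusted p 1.05e-08). Per1, with the E-box and D-box shown above, had 10.44, 11.81 and 12.14 at ZT22 against 11.72, 11.93 and 12.49 at ZT14. Its ranges overlapped widely, and the difference of -0.60 ± 0.11 (0.000164) rests on the class term, without which the adjusted p is 0.062. Per3 fell by 0.40 ± 0.09 (0.00138), Cry2, a cryptochrome repressor, by 0.25 ± 0.04 (8.46e-06) and Cipc, which inhibits Clock, by 0.27 ± 0.05 (0.000222). Cry1, the other cryptochrome, did not pass, with 10.32, 10.49 and 11.09 at ZT22 against 10.0, 10.79 and 10.94 at ZT14 (difference 0.09 ± 0.07, adjusted p 0.475).

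On the activator side, Arntl, the partner of Clock and Npas2, had 10.24, 10.44 and 10.74 at ZT22 against 9.58, 9.93 and 10.33 at ZT14, and rose 1.52-fold (difference 0.60 ± 0.08, adjusted p 5.4e-08). Npas2 had 11.71, 11.81 and 11.98 at ZT22 against 11.29, 11.54 and 11.65 at ZT14 (0.28 ± 0.05, 0.000164). Arntl overlapped slightly between the groups and Npas2 did not. Clock (0.03 ± 0.04) did not pass, nor did Rora (-0.03 ± 0.05) and Rorb (-0.01 ± 0.07), nuclear receptors that drive Arntl. Of 8 kinases and ubiquitin factors that set the stability of the repressors 1 passed, Csnk1d, at 0.11 ± 0.04 (0.0482). That call was lost in 14 of 23 fits that each left out 1 library, and on the 23 libraries alone.

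Most clock outputs were lower as well. Dbp (ENSMUSG00000059824, chr7:45705088-45710203, plus strand), which binds D-boxes, had 11.04, 11.36 and 11.56 at ZT22 against 12.1, 12.27 and 12.46 at ZT14. The groups were separate, and the difference of -0.95 ± 0.06 had the smallest adjusted p of the genes named here (9.92e-21). Tef and Hlf, of the same factor family, fell by 0.35 ± 0.04 (1.35e-08) and 0.25 ± 0.05 (0.000749).

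Bhlhe40, a repressor that competes at E-boxes, had 9.43, 9.86 and 10.08 at ZT22 against 10.41, 10.71 and 11.4 at ZT14, again with no overlap (2.13-fold lower, adjusted p 4.51e-14). Its paralog Bhlhe41 fell by 0.59 ± 0.08 (3.73e-08) with overlapping ranges. Usp2, a deubiquitinase under clock control, had -0.20 ± 0.07 (0.0498), at the edge of the threshold, and lost its call in 18 of 23 fits that left out 1 library. Wee1, a cell cycle kinase gene driven by the clock in liver (-0.16 ± 0.08), and Nfil3, which opposes Dbp at D-boxes (0.13 ± 0.13), did not pass.

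**Figure D2:**
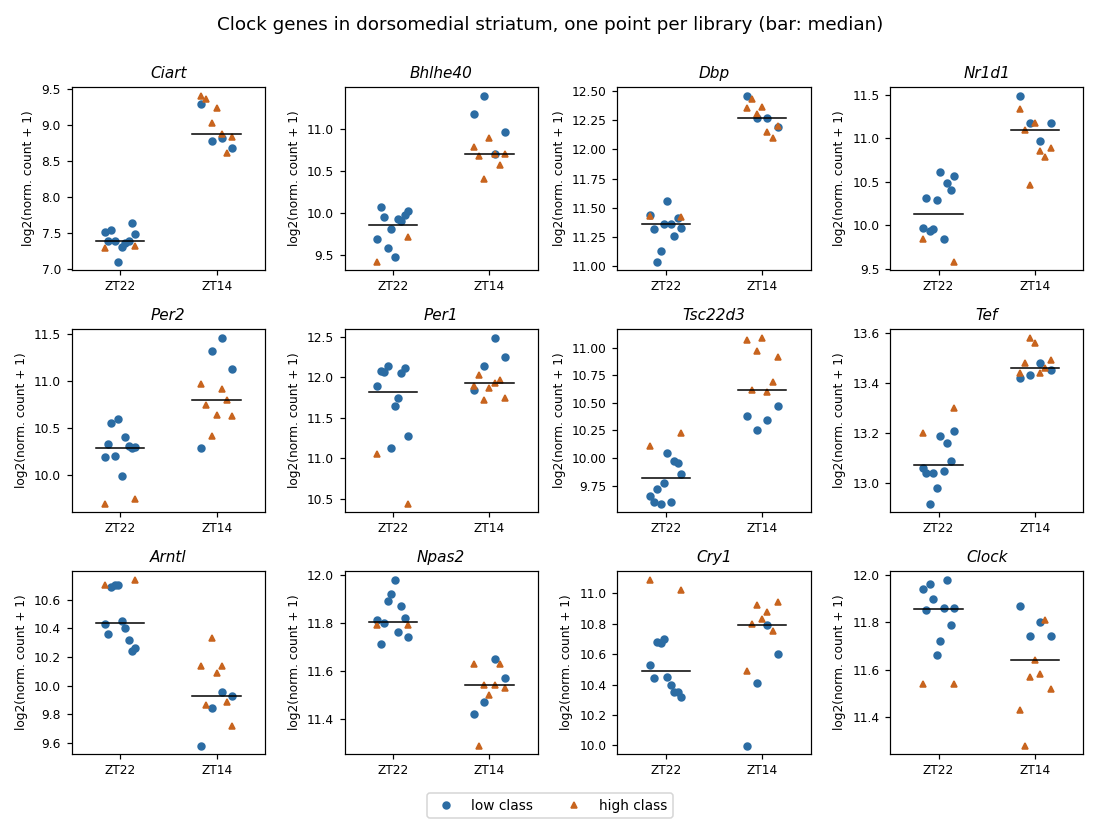
Levels of 12 clock genes (log2 of the normalised count plus 1) in each DMS library at ZT22 (left) and ZT14 (right), with circles for the low and triangles for the high library class and a bar at the median. Ciart, Bhlhe40, Dbp, Tsc22d3, Tef and Npas2 separate the groups completely, whereas Per1, Cry1 and Clock overlap.

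Cold-inducible RNA-binding proteins, whose genes are raised by a fall in temperature, were both lower at ZT22. Rbm3 had 8.08, 8.69 and 9.26 at ZT22 against 9.27, 9.78 and 10.4 at ZT14, so that the highest ZT22 library lay just below the lowest ZT14 library. Its difference was -0.96 ± 0.12 (1.94-fold lower, adjusted p 5.63e-08). Cirbp fell by 0.38 ± 0.10 (0.00892), with -0.09 in males and -0.74 in females, and the test of that gap had an adjusted p of 0.193.

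Of 20 measured targets of glucocorticoid hormone 7 fell and none rose at ZT22, and 13 did not pass, beside 2.48% and 3.38% of all genes. Their median difference was -0.28 against 0.00 over all genes. Tsc22d3, which carries out anti-inflammatory actions of the hormone and is also counted as a clock output, had 9.59, 9.82 and 10.23 at ZT22 against 10.25, 10.62 and 11.09 at ZT14. These ranges did not overlap (difference -0.72 ± 0.08, adjusted p 2.07e-09). Sgk1, a kinase induced by the hormone, had 10.23, 10.56 and 10.91 at ZT22 against 10.45, 11.62 and 12.43 at ZT14 (-0.76 ± 0.12, 6.65e-06). The ZT14 libraries were widely spread, and the lowest of them lay within the ZT22 range.

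Zbtb16, a zinc finger factor, was 2.11-fold lower (-1.07 ± 0.20, adjusted p 0.000153), and Klf15, whose promoter is shown above, 1.36-fold lower (-0.44 ± 0.08, 0.000155). Klf9 fell by 0.30 ± 0.06 (0.000336) and Nfkbia, the inhibitor of NF-kB, by 0.42 ± 0.11 (0.0144). Per1 is the remaining member that fell. In contrasts by sex 2 members fell in males and 8 in females, and in the low class alone 2 fell, so the count is not stable across subsets. Over all 12101 genes 91, 177 and 94 fell in these. Sgk1 differed by -0.41 in males and -1.20 in females, a gap whose test did not pass (adjusted p 0.148).

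Genes of energy sensing and insulin signalling gave 3 that fell and none that rose of 19 (median -0.20), beside 2.48% and 3.38% of all genes. Slc2a1, the glucose transporter of the blood-brain barrier, had 10.83, 11.07 and 11.35 at ZT22 against 11.31, 11.62 and 12.25 at ZT14, and fell by 0.53 ± 0.06 (adjusted p 1.84e-09). Its ranges met only at their edges. The transcription factor gene Foxo3 fell by 0.21 ± 0.06 (0.0156) and the pseudokinase gene Trib1 by 0.52 ± 0.15 (0.0219). No gene of 57 for nuclear oxidative phosphorylation, 13 mitochondrially encoded or 31 proteasome genes passed. Without the class term 13, 7 and 6 of them fell, and with the mitochondrial rRNA share in its place 2, 0 and 1 rose. Over all 12101 genes 1254 fell in the first of these fits and 654 rose in the second.

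Outside the clock, the largest falls included genes with no list in common. Angptl2, a secreted protein of the angiopoietin-like family (ENSMUSG00000004105, chr2:33216069-33247717, plus strand), had 4.54, 5.67 and 6.9 at ZT22 against 5.84, 6.96 and 7.51 at ZT14. It was 3.05-fold lower with overlapping ranges and a wide error (-1.61 ± 0.32, adjusted p 0.00058), at a low level. Ano2, a calcium-activated chloride channel (ENSMUSG00000038115, chr6:125690419-126040126, plus strand), had 9.09, 9.4 and 10.15 at ZT22 against 10.1, 10.78 and 10.92 at ZT14. Of the 12 ZT22 libraries 11 lay below every ZT14 library (2.16-fold lower, 3.45e-12).

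Coq10b, which acts in coenzyme Q function, had 8.21, 8.67 and 9.13 at ZT22 against 9.17, 9.55 and 9.91 at ZT14, with no overlap (-0.76 ± 0.09, adjusted p 1.84e-09). Kcna5, a voltage-gated potassium channel gene, fell by 0.62 ± 0.09 (1.03e-06), with 9.16, 9.5 and 9.86 at ZT22 against 9.8, 10.04 and 10.36 at ZT14. Cabcoco1 fell 1.82-fold (0.00268) and the histone gene Hist1h2ai 2.03-fold (0.0312), both at low levels, and reads of near-identical histone genes are uncertain.

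Among genes that rose, Ntng1, a membrane-anchored netrin that guides axons (ENSMUSG00000059857, chr3:109780040-110144011, minus strand), had 8.87, 9.2 and 9.9 at ZT22 against 8.14, 8.42 and 8.75 at ZT14. All ZT22 libraries were above all ZT14 libraries (1.79-fold higher, 0.84 ± 0.10, adjusted p 3.95e-09). Fgf3, a growth factor gene, rose 1.82-fold (0.86 ± 0.17, 0.000405), with 6.54, 7.37 and 8.07 at ZT22 against 5.84, 6.5 and 7.2 at ZT14.

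Creb5, a factor of the CREB family, had 7.1, 8.06 and 8.64 at ZT22 against 5.06, 7.2 and 7.63 at ZT14 (0.81 ± 0.17, adjusted p 0.000952). The kinase gene Pim1 rose 1.7-fold (0.0269), the B-cell scaffold gene Bank1 1.57-fold (0.00639) and the transporter gene Abcc12 1.56-fold (0.00884), each at a level below most genes and with overlapping ranges. Tardbp, which encodes the RNA-binding protein TDP-43, had 11.36, 11.52 and 11.66 at ZT22 against 11.05, 11.25 and 11.35 at ZT14 (0.19 ± 0.04, 0.000247), a small but complete separation.

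Cytosolic heat shock chaperones moved in both directions. Of 23 measured 8 rose and 2 fell at ZT22, against 3.38% and 2.48% of all genes, and their median difference was 0.05. The members that rose belong mostly to the machinery of Hsp90 and the constitutive Hsp70. Ahsa1, which activates the Hsp90 ATPase, had 10.4, 10.8 and 11.05 at ZT22 against 10.11, 10.33 and 10.76 at ZT14 (0.40 ± 0.06, adjusted p 2.9e-06).

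Hspa8, the constitutive Hsp70, rose by 0.27 ± 0.05 (adjusted p 0.00058), Hsp90ab1 by 0.19 ± 0.04 (0.00111) and Hsp90aa1 by 0.17 ± 0.05 (0.0307). Their cofactors followed: Hsph1, a nucleotide exchange factor, rose by 0.31 ± 0.07 (0.00118), Hspa4 by 0.18 ± 0.04 (0.00177), Stip1 by 0.19 ± 0.05 (0.0232) and Fkbp4 by 0.19 ± 0.06 (0.0333). The Hsp40 co-chaperones Dnajb1 and Dnajb4 went the other way, by -0.41 ± 0.09 (0.00116) and -0.39 ± 0.06 (2.08e-06). Reads of Hspa8 and the Hsp90 genes could be shared with their pseudogenes.

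The chaperone count depended on the libraries. Fitted on the 23 libraries alone it was 1 higher and 1 lower (85 and 103 over all 12101 genes). In the low class alone it was also 1 and 1 (141 and 94 over all genes). Within the sexes 0 rose and 2 fell in males, and 9 rose and 1 fell in females. Over all 12101 genes 69 rose and 91 fell in males, and 283 and 177 in females. Of these chaperones only Hsph1 passed the test of the difference between the sexes, and it lost that call in 14 of 23 fits without 1 library. Leaving out single libraries gave 5 to 9 that rose.

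Of 23 chaperones and stress genes of the endoplasmic reticulum 2 rose and 2 fell (median 0.01), where 3.38% of all genes rose and 2.48% fell. Hsp90b1, the Hsp90 of that compartment, rose by 0.24 ± 0.05 (adjusted p 0.00214) and the calcium-binding chaperone gene Calr by 0.22 ± 0.07 (0.0483). Herpud1, which serves the degradation of misfolded proteins, had 9.45, 9.59 and 9.85 at ZT22 against 9.86, 10.05 and 10.12 at ZT14, with no overlap (-0.36 ± 0.05, 7.04e-07). Xbp1, the transcription factor of the unfolded protein response, fell by 0.23 ± 0.07 (0.0426). The direction of Calr turned without the class term (-0.01), and that of Xbp1 in the high class alone (0.02). Of 23 fits without 1 library Calr lost its call in 15 and Xbp1 in 13.

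Splicing regulators gave 7 that rose and 1 that fell of 31, with a median of 0.05, beside 3.38% and 2.48% of all genes. Hnrnpa2b1 had 12.94, 13.17 and 13.28 at ZT22 against 12.7, 12.84 and 13.04 at ZT14, and rose by 0.20 ± 0.03 (adjusted p 2.53e-06). Other hnRNP genes that rose were Hnrnph1 (0.21 ± 0.04, 5.45e-05), Hnrnpdl (0.23 ± 0.05, 0.0017), Hnrnpm (0.20 ± 0.04, 0.00188) and Hnrnpc (0.17 ± 0.04, 0.00423). The SR protein gene Srsf5 rose by 0.31 ± 0.08 (0.00801). Tra2b, a splicing activator related to the SR proteins, fell by 0.22 ± 0.06 (0.0237). Equal-sum scaling gave 10 that rose and 0 that fell, in a fit where 727 of all 12101 genes rose and 102 fell. The sign of Hnrnpc turned without the class term (-0.01).

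**Figure D3:**
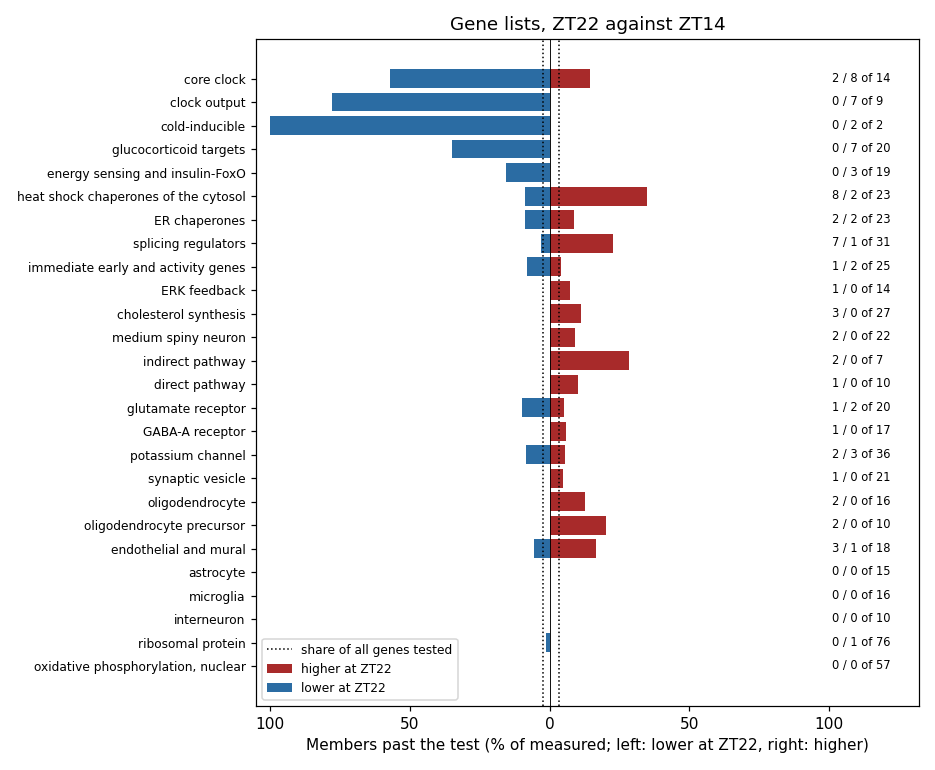
Share of the measured members of each gene list that were higher (right, red) or lower (left, blue) at ZT22 than at ZT14, with the counts at the right edge and dotted lines at the share of all genes tested (3.38% and 2.48%). The clock, cold-inducible and glucocorticoid lists extend to the left, and chaperones and splicing regulators mainly to the right.

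Differences in genes of striatal neurons were small, and the counts that rose stand beside 3.38% of all genes that rose and 2.48% that fell. Of 22 medium spiny neuron markers 2 rose and none fell (median 0.11), and 16 had a positive difference, against 6019 of all 12101 genes. Ptpn5, a striatal phosphatase gene, rose by 0.25 ± 0.08 (adjusted p 0.0419). Gnal, the G protein subunit that couples dopamine and adenosine receptors to adenylyl cyclase, rose by 0.21 ± 0.07 (0.0403). The count of markers that rose ran from 0 to 6 when single libraries were left out. It was 9 with equal sums, where 727 of all 12101 genes rose. Of 23 fits that each left out 1 library, Ptpn5 lost its call in 15 and Gnal in 11. Of 7 indirect-pathway genes 2 rose, Adora2a, an adenosine receptor gene of these neurons, and Penk, which encodes enkephalin. Adora2a had 12.64, 12.97 and 13.23 at ZT22 against 12.36, 12.77 and 12.9 at ZT14 (0.29 ± 0.07, 0.00504). Penk had 15.29, 15.96 and 16.4 at ZT22 against 15.31, 15.74 and 16.14 at ZT14 (0.29 ± 0.08, 0.0174), with ranges that overlapped almost wholly. Of 10 direct-pathway genes 1 rose, Sfxn1, a mitochondrial serine transporter gene (0.32 ± 0.08, 0.00528). Of 11 genes of dopamine signalling 1 rose (Gnal), and of 6 opioid genes 1 rose (Penk).

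Receptor and channel genes changed singly, and their counts stand beside 3.38% of all genes that rose and 2.48% that fell. Gabra2, a GABA-A receptor subunit, was the member of 17 that rose (0.29 ± 0.06, adjusted p 0.000387), with 10.59, 10.88 and 11.12 at ZT22 against 10.35, 10.57 and 10.72 at ZT14. Of 20 glutamate receptor genes the kainate receptor subunits Grik5 (-0.31 ± 0.06, 0.00111) and Grik4 (-0.55 ± 0.16, 0.0263) fell, and Grm5, a metabotropic receptor, rose (0.16 ± 0.04, 0.0175). Of 36 potassium channel genes Kcna4 and Kcnip2 rose (0.21 ± 0.06, 0.0343 and 0.19 ± 0.06, 0.0421). Kcna5, Kcnip3 (-0.37 ± 0.06, 3.41e-05), which is a calcium-binding channel partner, and Kcnn2 (-0.24 ± 0.07, 0.0372) fell. Without 1 library Kcnip2 lost its call in 13, Kcnn2 in 7 and Kcna4 in 6 of 23 fits. The channel list gave 12 that rose and 1 that fell without the class term, and 0 and 3 with the mitochondrial rRNA share in its place. Over all 12101 genes these fits gave 1399 and 1254, and 654 and 571. Of 21 synaptic vesicle genes 1 rose, Unc13a, which primes vesicles (0.33 ± 0.09, 0.0204).

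Immediate early and activity genes gave 1 that rose and 2 that fell of 25, with a median of -0.31, beside 3.38% and 2.48% of all genes. Fitted alone, males had a median of -0.58 and females of 0.12. Vgf, a secreted neuropeptide precursor, rose by 0.37 ± 0.09 (adjusted p 0.00627), with 12.02, 12.44 and 13.01 at ZT22 against 11.81, 12.1 and 12.47 at ZT14. Btg2, an antiproliferative early gene, fell by 0.72 ± 0.23 (0.0483), and Per1 is the other that fell. Btg2 lost its call in 16 of 23 fits without 1 library. Without the class term 3 rose and 0 fell (median 0.07), against 1399 and 1254 of all 12101 genes. Of 14 genes of ERK feedback 1 rose, Spred3 (0.44 ± 0.09, 0.00164).

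In cholesterol synthesis 3 of 27 genes rose and none fell: Insig1, which restrains the pathway (0.23 ± 0.06, adjusted p 0.017), Dhcr7 (0.26 ± 0.08, 0.0246) and Mvd (0.40 ± 0.12, 0.0373). Mvd lost its call in 11 and Dhcr7 in 3 of 23 fits without 1 library. Over all genes 3.38% rose and 2.48% fell. On the 23 libraries alone, in the low class, the high class, females and males fitted alone, 0 of the 27 rose. In females 1 fell. Over all 12101 genes 85, 141, 30, 258 and 42 rose in these fits. In DLS 1 of the 27 rose and 3 fell, against 9.11% and 8.65% of the genes shared with DMS. Ribosomal protein genes gave 1 that fell of 76, Rpl3 by 0.18 ± 0.06 (0.0363), with a median of -0.06. That list follows the library class: without the class term 44 fell, and with the mitochondrial rRNA share in place of the class 8 rose and none fell. Over all 12101 genes 1254 fell in the first of these fits, and 654 rose and 571 fell in the second.

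Markers of other cell types passed in some lists only. Over all genes 3.38% rose and 2.48% fell. Astrocyte (15 measured), microglia (16), interneuron (10), cortical neuron (6) and red blood cell (5) markers had none that passed, though 3 microglia markers rose with equal sums. All 5 red blood cell markers had negative differences (median -0.31; 0.12 in males and -0.92 in females). Without the class term 4 of them fell, as did 1254 of all 12101 genes. The summed level of the red blood cell markers had a median of 10.63 (log2) at ZT22 and 11.81 at ZT14. Summed marker levels, here and below, are not adjusted for class. Of the libraries 2 of 12 at ZT22 and 7 of 11 at ZT14 were of the high class, and its part in that gap was not tested. Equal sums gave 5 vascular (endothelial and mural) markers that rose and 0 that fell, against 727 and 102 of all 12101 genes. Without the class term 4 vascular markers rose and 6 fell (1399 and 1254 of all genes). With the range of animal numbers in its place 3 rose and 4 fell (781 and 663 of all genes). On the 23 libraries alone 1 rose and 0 fell (85 and 103 of all genes). In contrasts by sex 4 rose in females and 0 in males (283 and 69 of all genes), and 0 fell in either. Endothelial and mural markers gave 3 that rose and 1 that fell of 18: the tight-junction gene Cldn5 rose by 0.56 ± 0.12 (adjusted p 0.00131), with 9.08, 9.36 and 9.91 at ZT22 against 8.28, 9.09 and 9.75 at ZT14. The adhesion gene Pecam1 rose by 0.31 ± 0.08 (0.0123) and the VEGF receptor gene Kdr by 0.42 ± 0.12 (0.0249), while Pltp, a lipid transfer protein gene, fell by 0.28 ± 0.09 (0.0401). Pltp lost its call in 14 and Kdr in 4 of 23 fits without 1 library. Of 17 collagen and matrix genes the vessel basement membrane collagens Col4a1 (0.46 ± 0.11, 0.00423) and Col4a2 (0.45 ± 0.11, 0.00717) rose. The 18 vascular markers had a median difference of -0.06. Their summed level was 13.81 to 14.32 (log2) at ZT22 (median 14.07) and 14.05 to 14.42 at ZT14 (median 14.2).

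Oligodendrocyte markers rose in 2 of 16, the myelin gene Opalin (0.41 ± 0.11, adjusted p 0.0184) and the lineage factor Sox10 (0.30 ± 0.09, 0.0399), and precursor markers in 2 of 10, the lineage factors Olig2 (0.35 ± 0.08, 0.0066) and Olig1 (0.23 ± 0.07, 0.0289). Over all genes 3.38% rose. Sox10 lost its call in 9 and Olig1 in 4 of 23 fits without 1 library. The summed level of the oligodendrocyte list was 17.15 to 17.96 at ZT22 (median 17.51) and 16.98 to 17.75 at ZT14 (median 17.33). The part of tissue composition in these changes was not tested. Only 2 of 8 choroid plexus markers were measured. The defining one, Ttr, was at 0 in the lowest ZT22 library and reached 12.35 at ZT22, against 3.98 to 14.42 at ZT14, and its difference did not pass (-4.67 ± 1.77, 0.103).

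Small noncoding RNAs were among the genes of largest rise, and their calls depended on a pair of libraries and on how the class was treated. Of 28 small nucleolar RNAs, which guide modification of other RNAs, 12 rose and none fell (median 0.65), as did 3 of 20 small nuclear RNAs, 2 of 10 RNAs of other types (the Y RNAs Rny1 and Rny3) and 0 of 6 small Cajal body RNAs. Rny3 had 11.09, 11.93 and 13.86 at ZT22 against 8.82, 11.81 and 13.47 at ZT14 (1.14 ± 0.28, adjusted p 0.00615). Rny1 had 10.22, 11.26 and 12.53 at ZT22 against 8.2, 10.73 and 12.44 at ZT14 (1.04 ± 0.26, 0.00828). Snora23 and Snord22 rose 2.05-fold each (0.00745 and 0.013), and Snora30 and Snora21 1.73-fold and 1.59-fold (0.0265 and 0.0217). The ranges of all 6 overlapped widely. Over all genes 3.38% rose and 2.48% fell.

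Averaged over these 64 genes and with the class removed, the ZT22 libraries had levels of 8.25 to 9.35 and 9 of the ZT14 libraries 7.79 to 9.11. The other ZT14 libraries, male number 21 (7.03) and female number 25 (7.38), were the lowest of the 23. Both were of the low class, and leaving out the lowest ZT14 libraries necessarily lowers a rise at ZT22. With both left out, an alternative chosen after seeing the data, 0 of 28, 0 of 20 and 0 of 10 passed, the median of the nucleolar RNAs was 0.29, and Rny3 had an adjusted p of 0.118, while 301 genes rose and 268 fell over the whole table. Without the class term, with all libraries, 0 nucleolar RNAs rose and 1 fell. With the range of animal numbers in its place 0 rose, and with the mitochondrial rRNA share in its place 25 rose. With class and share together 24 rose, with equal sums 17, and on the 23 libraries alone 5. Without male number 21 alone 2 nucleolar RNAs passed, and without female number 25 alone 4 did. These RNAs are short, lie within host genes or have many copies, and their level also followed the library class (median high minus low 1.17), so their counts are uncertain.

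Whether the difference between late and early dark itself differs between males and females was tested by an interaction term. It passed for 7 of 12101 genes (0.0578%), and 962 had an unadjusted p under 0.05. Pfkfb3, a regulator of glycolysis, differed by -0.21 ± 0.07 in males and 0.36 ± 0.08 in females (male minus female -0.57, adjusted p 0.0112). Net1, an activator of RhoA, differed by -0.30 ± 0.12 in males and -1.18 ± 0.13 in females (0.87, 0.0338). The chaperone gene Hsph1 differed by 0.09 ± 0.07 in males and 0.58 ± 0.08 in females (-0.49, 0.0371). The other 4 were Xpc, a DNA repair gene, Rrm2b, a ribonucleotide reductase subunit gene, Etv5, a factor downstream of ERK, and Adipor2, an adiponectin receptor gene. No gene passed without the class term or on the 23 libraries alone, and none without ZT22 female number 49.

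The same pair of times was measured in the dorsolateral striatum (DLS), whose table was normalised separately and whose libraries came in part from the same animals (17 animals gave both regions). In DLS 2018 of 11365 shared genes passed (17.8%), 1035 of them higher (9.11%) and 983 lower (8.65%) at ZT22, in a fit that had no class term for DLS. By the same share of mitochondrial ribosomal RNA, 3 of 12 DLS libraries at ZT22 (27.69 to 29.85%) were of the low class and 0 of 12 at ZT14, and the part of this in the DLS count was not tested. The DLS fit also held ZT6 male number 13, whose normalised counts summed to 217879000, against 44258500 in ZT6 male number 14. Its share was 13.17%, and its part in the DLS counts and the region test was not tested. Of the 688 shared genes called in DMS, 435 were also called in DLS, all in the same direction, which is 63.2% of the DMS list and 21.6% of the DLS list. The same sign was found for 95.6% of the DMS genes, against 69.8% of all shared genes. Across genes the differences of the regions had a Pearson correlation of 0.542, given as a description because genes are not independent and animals are shared.

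The difference between the regions was tested in a joint fit with the animal as a block, and 0 of 11365 genes passed (limma; 973 at an unadjusted p under 0.05, smallest adjusted p 0.289). With the mitochondrial rRNA share in each region in place of the class 11 genes passed. Ciart differed by -1.51 in DMS and by -1.96 in DLS, Per2 by -0.90 and -1.29, Per1 by -0.60 and -0.92, and Ano2 by -1.11 and -1.72, so these point estimates were nearer to 0 in DMS. The 5 genes of smallest p for the region difference were Ano2, Gm24187 (0.89 in DMS and -0.38 in DLS), Romo1, which organises mitochondrial membranes (0.15 and -0.28), B230219D22Rik (0.12 and -0.10) and Lrrc41 (0.14 and -0.18), each at the adjusted p of 0.289. Dbp (-0.95 and -0.94) and Nr1d2 (-0.63 and -0.74) were close. Of the small RNAs named above Rny3 (-0.15), Snora23 (-0.35) and Rny1 (-0.10) were not raised in DLS, where none of 28 nucleolar RNAs rose (median -0.22).

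**Figure D4:**
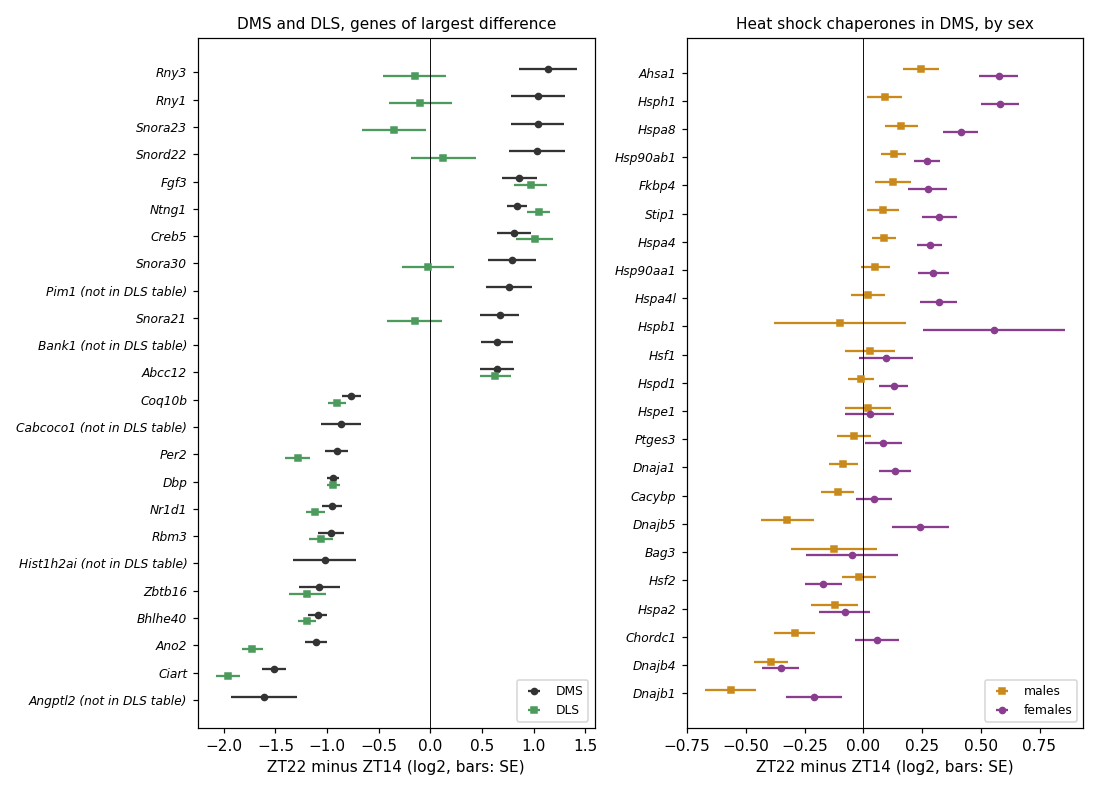
Left, ZT22 minus ZT14 (log2, bars: SE) for the genes of largest difference in DMS (circles) and DLS (squares). Right, the same quantity for the 23 cytosolic chaperone genes in DMS males (squares) and females (circles). Clock genes such as Ciart and Nr1d1 lie left of 0 in both regions, and most chaperone genes lie further right in females than in males. Of the chaperones only Hsph1 passed the test of the difference between the sexes.

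Both times were also set in the daily course of all 6. With class removed, Ciart averaged 7.27, 7.94, 9.02, 8.87, 7.76 and 7.36 (log2; SD 0.17 to 0.32) at ZT2, ZT6, ZT10, ZT14, ZT18 and ZT22. Its ZT14 level was thus near the highest and its ZT22 level near the lowest of the day. Arntl averaged 10.77, 9.97, 9.61, 9.87, 10.12 and 10.48 at the same times, and ZT22 lay on its way up. Per2 averaged 10.42, 9.88, 10.48, 11.21, 11.35 and 10.31, with its highest mean at ZT18, between the pair. Hsph1 averaged 13.8, 13.58, 13.41, 13.54, 14.09 and 13.85, so its highest mean also lay at ZT18. Sgk1 averaged 10.6, 10.8, 11.1, 11.28, 10.8 and 10.53, with ZT14 highest, and Ntng1 averaged 9.26, 9.01, 8.64, 8.49, 8.94 and 9.33, with ZT14 lowest and ZT22 highest. Cry1 averaged 10.48, 10.04, 10.06, 10.43, 10.64 and 10.52, so that ZT14 and ZT22 lay on either side of its highest mean.

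**Figure D5:**
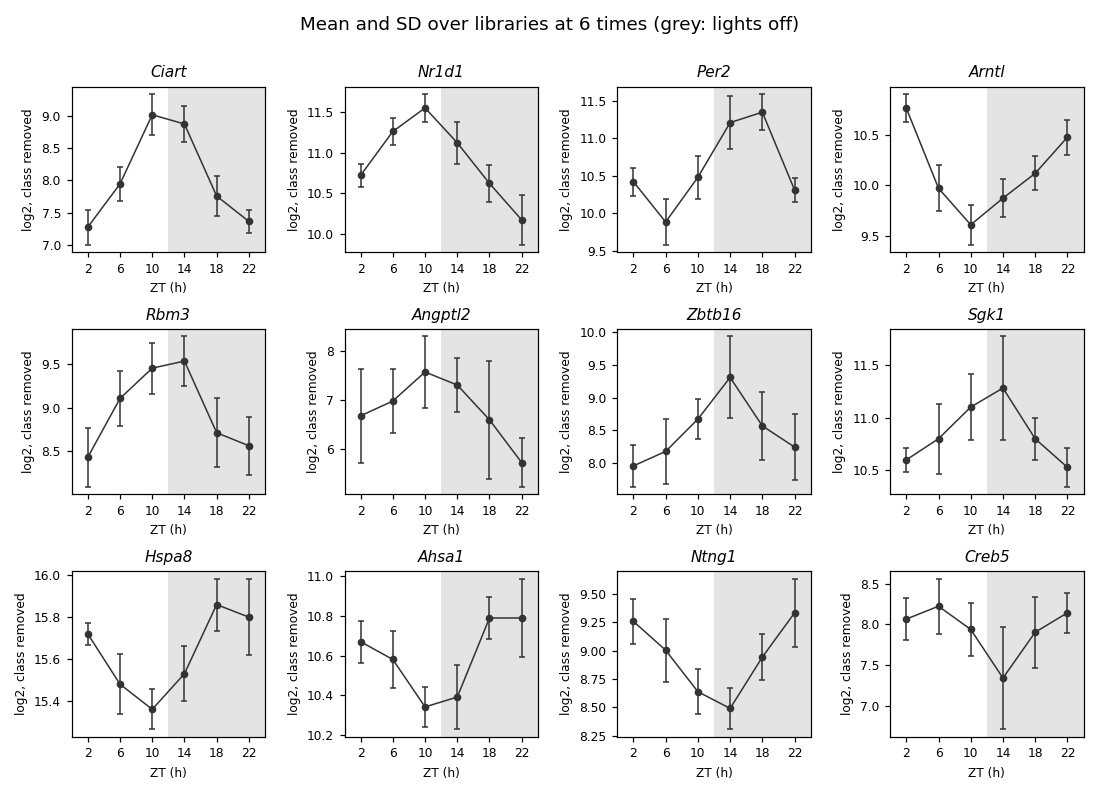
Mean and SD over DMS libraries at ZT2, ZT6, ZT10, ZT14, ZT18 and ZT22 (x axis, h; grey: lights off) of the level with class removed (log2, y axis) for 12 genes. Ciart and Nr1d1 run down between ZT14 and ZT22, Arntl and Ntng1 run up, and Per2 is highest at ZT18.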

How the data were processed

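Per the labels' protocols, low-input kits for stranded total RNA gave the libraries, paired reads of 75 bp were mapped to Ensembl GRCm38 by HISAT2 2.1.0, and HTSeq 0.10.0 (union mode) produced gene counts. The submitters' processing notes also name FastQC and Trimmomatic, and list a human build that the mouse identifiers contradict. Whether counting used the strand is not given in the sources used here, so overlapping genes and near-identical copies are uncertain. The authors filtered genes and normalised each region separately with DESeq2, and deposited log2 values. In DMS every value was log2 of a whole read number times the library's step plus a pseudocount of 1 (tolerance 0.01 reads), which gave the reads per library.

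All 12101 deposited genes were tested, of which 12073 matched GENCODE M21 by identifier. In limma 3.58.1 (R 4.3.3, the package data.table, version 1.17.8), with a variance trend, time as 6 levels, sex and library class were fitted to 70 libraries, and p-values were adjusted over all genes (Benjamini-Hochberg, threshold 0.05). Each library is labelled as a separate animal. Sex and region differences were interaction contrasts, that of regions over 11365 shared genes with a block for the animal (correlation 0.128). Genes named were the 12 largest changes in each direction with a mean of at least 6 and one sign in both classes and sexes, the clock genes, up to 4 genes of smallest adjusted p in each other list, and the 5 smallest sex and region p. Members of lists that passed beyond these, genes whose groups did not overlap and genes in the closing section were chosen after their values were seen. The members and lists were chosen with earlier results of these data known, so lists have no test. Alternatives covered the class term, subsets, scaling, pseudocount (10), low values, variance trend, voom on recovered reads, a replicate block and single libraries. Animal numbers are not shared between ZT22 and ZT14 within a sex, so they do not pair the comparison. The labels mention no molecular identifiers, and errors are those between libraries. Plots were drawn in matplotlib 3.10.9 (Python 3.11.15; numpy 2.4.6; pandas 2.3.3).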

Additional observations from a re-analysis of the deposited data

Results flagged for a closer look

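Within each time and sex, the highest or lowest library was set against the spread of the others for 42 genes after the class effect was removed (168 groups of libraries). By Dixon's critical value 12 groups (7.14%) had a library that stood apart, where chance alone gives about 1 in 20. The cause was not tested in any of them.

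ZT14 male number 21 stood apart in 4 genes. Its level (log2) was 8.82 for Rny3, where the other ZT14 males had 10.97 to 11.92, and 8.2 for Rny1, where they had 10.27 to 11.35. It had 7.87 for Snora21 (others 9.31 to 10.12) and 9.17 for Coq10b (others 9.41 to 9.55). ZT14 male number 25 was high in Abcc12 (7.44, others 6.21 to 6.64) and in Clock (12.1, others 11.74 to 11.87). ZT22 male number 1 was low in Bhlhe40 (9.48, others 9.86 to 10.03) and in Per2 (9.98, others 10.28 to 10.4), so both clock genes were further from the ZT14 level in that animal.

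Of the remaining groups, ZT22 male number 4 was high in Snora30 (7.48, others 6.43 to 6.78), ZT22 female number 5 in Creb5 (8.64, others 7.91 to 8.17) and ZT22 female number 2 in Angptl2 (6.9, others 5.39 to 5.75). ZT14 female number 43 was low in Nr1d1 (10.6, the other 4 from 11.23 to 11.49).

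The difference between ZT22 and ZT14 itself differed between the sexes in 7 genes (limma interaction, male minus female, log2). Pfkfb3 had -0.57 (males -0.21, females 0.36, adjusted p 0.0112) and Etv5 -0.78 (males -0.13, females 0.65, 0.0353), so their signs were opposite. Xpc had 0.59 with signs turned the other way (males 0.34, females -0.25, 0.0353). Net1 had 0.87 (males -0.30, females -1.18, 0.0338), Rrm2b 0.42 (males 0.00, females -0.41, 0.0353) and Adipor2 0.57 (males -0.11, females -0.68, 0.0372), each with the larger fall in females. Hsph1 had -0.49 (males 0.09, females 0.58, 0.0371).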

How the results depend on the processing

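The counts of genes higher and lower at ZT22 (409 and 300) were 1399 and 1254 without the class term, of which 301 and 224 were the same genes. They were 781 and 663 with the range of animal numbers in place of the class (338 and 254 the same genes). With the mitochondrial rRNA share they were 654 and 571 (297 and 233 the same genes). They were 85 and 103 on the 23 libraries alone, 30 and 50 in the high class, 141 and 94 in the low class, 42 and 71 in males fitted alone, 258 and 152 in females fitted alone, and 727 and 102 with equal sums. The other alternatives for all libraries gave 391 to 496 higher and 288 to 385 lower, among them 420 and 318 in voom. Class and rRNA share together, chosen after seeing the data, gave 434 and 383, of which only 240 and 197 were the same genes as in the main fit. Leaving out single libraries gave 299 to 455 and 227 to 346. A replicate block for the animal number without the sex letter (estimated correlation -0.109) gave 496 and 385 and lost no call among 138 genes of the text. It joins males and females of the same number, which are different animals, so it is no block of animals. The numbers are not shared between ZT22 and ZT14, so the block pairs nothing in this comparison.

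The sex difference (7 genes) gave 0 without the class term, 0 with the number range, 0 on the 23 libraries alone, 0 with equal sums, and 0 to 11 when single libraries were left out (0 without ZT22 female number 49). The region difference (0 genes) gave 11 with the rRNA share in each region, and 0 throughout when single libraries were left out with the correlation held fixed. Signs turned in Xbp1 (high class alone, 0.0218), Calr and Hnrnpc (no class term, -0.00988 and -0.00746) and Rrm2b (males alone, 0.0196). For these the cause was not tested.

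Of the 138 genes 59 stayed on their side of the threshold in the high class, 71 in the low class and 82 on the 23 libraries alone, where fewer libraries entered. Only 121 of the 138 were called in the main fit, and the others count as staying when they remain uncalled. Of the 121 calls 78, 66 and 56 were lost in these fits with the sign kept, and 1 more was lost with a turned sign in the high class. Class and time are partly entangled, and no fit here separates them fully. Leaving out single libraries ended the call of 34 of the 121 called genes in at least 1 fit, Hist1h2ai, Fkbp4 and Rpl3 in 6 fits each. Low genes such as Angptl2 have few reads and wide errors.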

Other observations

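Several genes outside the lists had adjusted p values as small as those of clock genes, and they were chosen after their values were seen. Dclk1, a microtubule-associated kinase gene of neurons, had 13.79, 13.93 and 14 (log2; lowest, median and highest library) at ZT22 against 14.24, 14.32 and 14.54 at ZT14, with no overlap (difference -0.44 ± 0.04, limma adjusted p 1.6e-11). Rbm28, a nucleolar RNA-binding protein gene, had 9.65, 10.23 and 10.49 at ZT22 against 8.73, 9.25 and 9.9 at ZT14 (0.61 ± 0.07, 4.76e-09). Narf fell by 0.34 ± 0.05 (1.18e-06) without overlap, and Fabp5, a fatty acid binding protein gene, by 0.32 ± 0.05 (9.64e-06). Nrarp, which encodes a feedback inhibitor of Notch, had -0.58 ± 0.08 (1.83e-07), and Lfng, whose product adds sugars to that receptor, had -0.56 ± 0.10 (6.7e-05).

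The kinase genes that fell included Camkk1 at -0.44 ± 0.07 (adjusted p 4.09e-06), Camk1g at -0.59 ± 0.11 (0.000283) and Mapk6 at -0.36 ± 0.05 (4.05e-07). So did Mxi1 (-0.26 ± 0.04, 1.09e-06) and Mxd1 (-0.40 ± 0.06, 7.41e-06), which oppose Myc at E-boxes, and Tsc22d1 (-0.21 ± 0.03, 8.74e-06), a relative of Tsc22d3. Secreted factors that rose were Scg2, a granin of dense-core vesicles (0.50 ± 0.08, 6.65e-06), and Inhba, the activin subunit gene (0.61 ± 0.10, 4.82e-05). Cavin2, a caveolar coat gene, fell by 0.60 ± 0.10 (adjusted p 1.79e-05), with -0.30 in males and -0.95 in females, a gap whose test did not pass (adjusted p 0.169). All of these genes had the same sign in DLS.

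Of 4 mitochondrial transfer RNA genes 2 fell, mt-Ty by 0.67 ± 0.20 (adjusted p 0.0351) and mt-Tm by 0.51 ± 0.17 (0.0498). Both lost the call in several fits that left out 1 library, mt-Ty in 9 and mt-Tm in 16 of 23. In DLS their differences were -0.15 and -0.11.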
